A study of Mus musculus with 6 samples.

Results

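The genes described here are 10 genes of the primitive endoderm program and its basement membrane: the transcription factor genes Gata4, Gata6, Sox17, Sox7 and Foxa2, the receptor gene Pdgfra, the endocytic adaptor gene Dab2, and the laminin chain genes Lama1, Lamb1 and Lamc1. They were chosen by name, and each had a probeset carrying its symbol alone, so 10 of 10 were measured among the 19938 genes compared. The samples were mouse embryonic stem (ES) cells with the fluorescent reporter 2C::tomato, sorted into 3 reporter-positive and 3 reporter-negative samples, and their RNA was hybridised to Affymetrix arrays, 1 array per sample. All 6 titles carry the mark WT, gelatin and ES-KOSR medium were used for every culture, and the treatment protocol names vehicle or 4-hydroxytamoxifen (4OHT), used to remove Kdm1a, without saying which of these the 6 samples received. In published work with this reporter, tomato is driven by the long terminal repeat of a retrovirus that is active at the 2-cell stage, so positive cells are a minor, changing part of the culture and not embryo cells. Replicate numbers 1 to 3 occur in both groups, and arrays of 1 number are called a pair below.

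Primitive endoderm is the first endoderm of the embryo. It forms beside the pluripotent epiblast inside the blastocyst, under fibroblast growth factor signalling, and gives rise to visceral and parietal endoderm of the yolk sacs. GATA and SOX factors drive it, Pdgfra marks its surface, and its cells secrete laminin trimers, each of an alpha, a beta and a gamma chain, into the basement membrane that separates it from the epiblast. ES cell cultures hold a few cells that express this program.

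None of the 10 genes passed the test between reporter-positive and reporter-negative cells (limma, Benjamini-Hochberg adjusted p between 0.910 and 0.999), in a comparison in which 0% of all genes passed. Values are log2 expression, and differences are positive minus negative. The difference was below 0 for 7 of the 10 genes, against 60.2% of all genes, and its median was -0.32 over the 10 genes and -0.04 over all genes. For 8 of the 10 the range over the 6 arrays was above the median range of all genes. These medians thus do not compare genes of like spread. The largest difference in size was that of Gata4, 1.38-fold, and 0 of the 10 reached 2-fold, against 0.527% of all genes that did. At an unadjusted p under 0.05 there were 0 of the 10, against 4.4% of all genes. When the fit took the number as a block there were 3, Gata4, Dab2 and Lama1, against 12% of all genes in either direction. All 3 were lower, and 6.61% of all genes were lower by this rule. Again 0 of the 10 had an adjusted p under 0.05 (smallest 0.396). In a bulk sample, fewer cells of a type and less RNA per cell cannot be told apart.

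**Figure D1:**
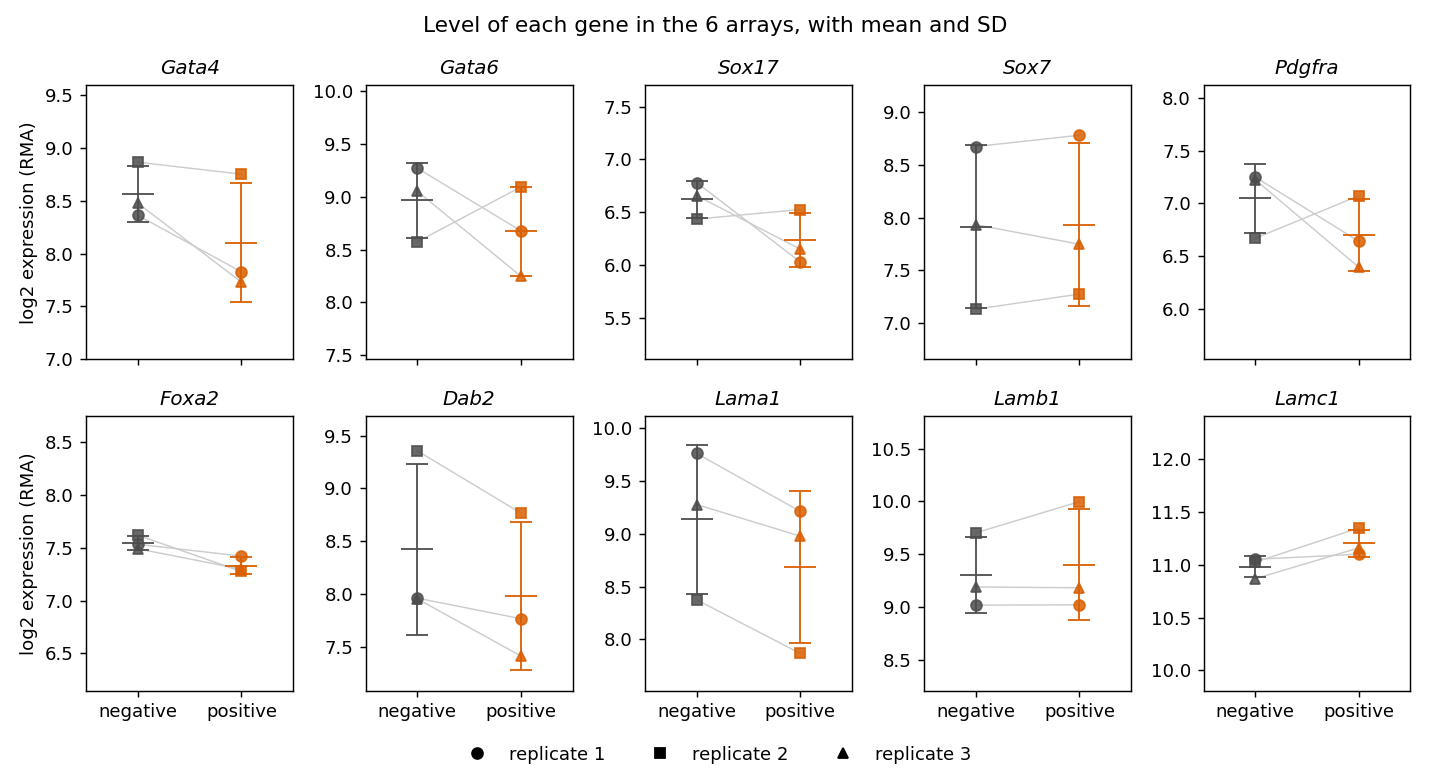
Log2 expression (RMA) of the 10 genes, 1 panel per gene with a span of 2.6 log2 units, in 3 reporter-negative (grey) and 3 reporter-positive (orange) arrays; marker shapes give the replicate number, grey lines join pairs, and bars show mean and SD. The groups are separate for Foxa2 (7.49 to 7.62 against 7.28 to 7.42) and Lamc1 (10.87 to 11.05 against 11.10 to 11.35) and overlap in the other panels.

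Levels correlated between arrays with r between 0.969 and 0.995 across genes, which does not measure how far the arrays differed within a gene. The ES cell factors Pou5f1 and Nanog lay between 12.08 and 12.69 and between 12.54 and 12.98 in the 6 arrays. The genes of the 2-cell program that serve as a check of the sort were higher in all 3 pairs for 7 of 7 measured, against 15.1% of all genes higher in all 3 pairs, with a median difference of 3.06 in pair 1, 5.98 in pair 2 and 1.38 in pair 3. The 3 largest were Gm5662 at 5.34, Tdpoz3 at 4.80 and Usp17la at 3.93. The list rests on earlier studies of this same reporter, so which way it points supports nothing here, and positive array 2 stood above the other positive arrays in each of them.

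Gata4 and Gata6 encode zinc finger factors that bind the same DNA letters, and Gata6 is needed earliest in the lineage. Gata4 (probeset 10420747) was at 8.36, 8.86 and 8.48 in negative arrays 1, 2 and 3 and at 7.83, 8.75 and 7.73 in the positive arrays. Arrays 2 were the highest of both groups, the other positive arrays lay below all negative arrays, and the groups overlapped through positive array 2 alone. The difference was -0.46 (SE 0.29, 95% interval -1.14 to 0.22, limma adjusted p = 0.910). Pair 1 gave -0.53, pair 2 gave -0.11 and pair 3 gave -0.75, so all pairs had one sign. Without positive array 2 it was -0.79, and without positive array 3 it was -0.28. With the block its SE was 0.14 and its adjusted p 0.399.

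Gata6 (probeset 10453857) was at 9.27, 8.57 and 9.05 in negative arrays 1, 2 and 3 and at 8.68, 9.09 and 8.25 in the positive arrays. Array 2 was the lowest of the negative and the highest of the positive arrays, which is not the order of Gata4. The difference was -0.29 (SE 0.26, limma adjusted p = 0.917), made of -0.59 in pair 1, 0.52 in pair 2 and -0.80 in pair 3. Without both arrays of number 2 it was -0.70, and without positive array 3 it was -0.08.

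Sox17 and Sox7 belong to the same small SOX subfamily, in which Sox17 is needed to keep endoderm cells in the lineage and both also act in blood vessels. Sox17 (probeset 10352936) was at 6.78, 6.44 and 6.66 in the negative arrays and at 6.03, 6.53 and 6.15 in the positive arrays. It had the order of Gata6: negative array 2 was the lowest of its group, and positive array 2 the highest. The difference was -0.39 (SE 0.17, 95% interval -0.78 to 0.0019, limma adjusted p = 0.910), with -0.75, 0.09 and -0.51 in pairs 1, 2 and 3. The groups overlapped only because positive array 2 lay above negative array 2.

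Sox7 (probeset 10415885) had a different order. It was at 8.67, 7.13 and 7.93 in the negative arrays and at 8.78, 7.28 and 7.75 in the positive arrays, so both arrays of number 2 were lowest and both of number 1 highest. The difference was 0.02 (SE 0.48, limma adjusted p = 0.999), with 0.11, 0.14 and -0.18 in pairs 1, 2 and 3. Its sign turned when positive array 1 (-0.40) or negative array 2 (-0.37) was left out and after a second quantile normalization (-0.05). The block brought the SE to 0.11 and the 95% interval to between -0.24 and 0.28. Sox7 and Gata4 lie on 1 chromosome with 6 protein-coding genes between them in RefSeq gene order, and the arrays of number 2 were the lowest for Sox7 and the highest for Gata4.

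Foxa2 encodes a forkhead factor of visceral and later of definitive endoderm. Foxa2 (probeset 10488374) was at 7.53, 7.62 and 7.49 in the negative arrays and at 7.42, 7.28 and 7.30 in the positive arrays. Every positive array lay below every negative array, which of the 10 genes held for Foxa2 alone, and for 7.15% of all genes. The difference was -0.22 (SE 0.10, limma adjusted p = 0.910), with -0.11, -0.34 and -0.19 in pairs 1, 2 and 3. It was 1.16-fold, and between -0.27 and -0.15 with arrays left out. As the groups were separate, leaving out arrays could not turn its sign. Its range over the 6 arrays was the smallest of the 10 genes, at 0.34.

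Foxa1, which encodes a close relative of Foxa2 and was on the list of relatives and cofactors, did not follow it. It was at 7.34, 7.92 and 7.44 in the negative arrays and at 7.18, 10.24 and 7.41 in the positive arrays, so positive array 2 alone stood high. Its difference of 0.71 (SE 0.76, limma adjusted p = 0.926) was 2.31 in pair 2 and between -0.16 and -0.03 in the other pairs.

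Pdgfra (probeset 10522503) encodes the receptor tyrosine kinase for platelet-derived growth factors that is used to mark and sort primitive endoderm. It was at 7.25, 6.67 and 7.22 in the negative arrays and at 6.64, 7.07 and 6.39 in the positive arrays. As in Gata6 and Sox17, array 2 was the lowest negative and the highest positive array. The difference was -0.34 (SE 0.23, 95% interval -0.88 to 0.19, limma adjusted p = 0.910), with -0.61, 0.40 and -0.83 in pairs 1, 2 and 3. It was -0.72 without both arrays of number 2, -0.53 without positive array 2 and -0.19 without positive array 3.

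Gata6, Sox17 and Pdgfra were thus 3 of the 10 genes in which array 2 was at the bottom of the negative and at the top of the positive group, an order seen in 8.35% of all genes. The order was noticed after the values were seen and was not tested. In the same 3 genes the sign of pair 2 was opposite to that of pairs 1 and 3, with pair 2 higher, as in 13.3% of all genes. Set against the mean of the other negative arrays, negative array 2 differed by -0.59 for Gata6, -0.28 for Sox17 and -0.57 for Pdgfra. Positive array 2 stood above the mean of the other positive arrays by 0.63, 0.43 and 0.55 for the same genes.

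**Figure D2:**
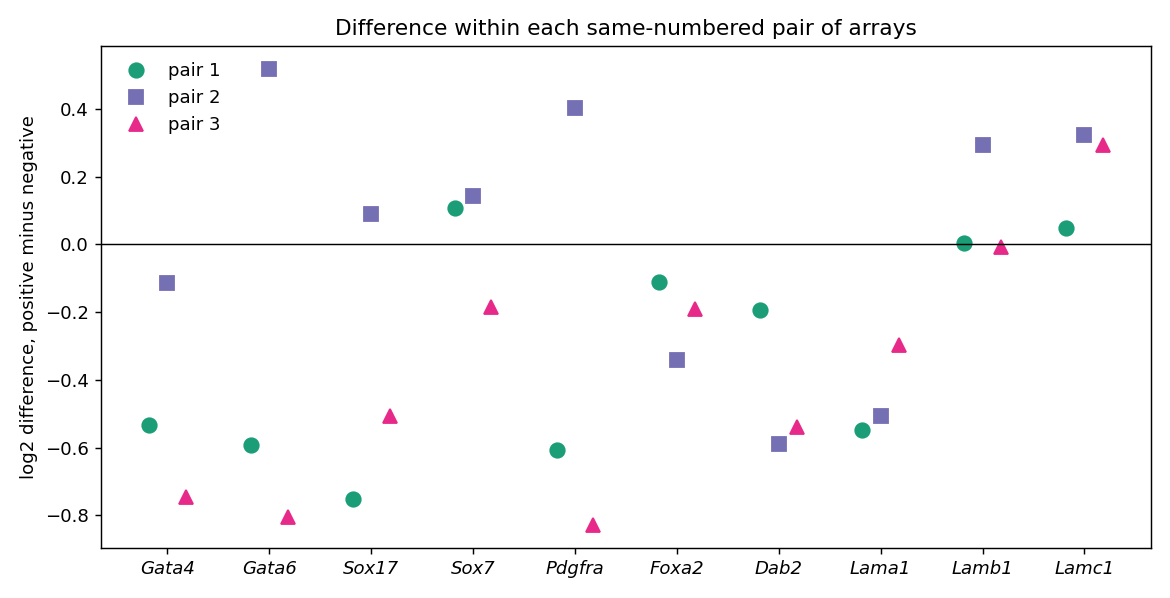
Log2 difference (positive minus negative) of the 10 genes within pair 1 (green circles), pair 2 (purple squares) and pair 3 (pink triangles); the line is at 0. Gata6, Sox17 and Pdgfra lie above 0 in pair 2 and below it in pairs 1 and 3, while Gata4, Foxa2, Dab2 and Lama1 lie below 0 in all 3 pairs.

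Dab2 encodes an adaptor that links cargo receptors such as megalin to clathrin, and it gives endoderm cells their polarity. Of its 2 probesets, 10422728 was used, and 10422744 was dim, between 4.19 and 4.38, with a difference of -0.06. Dab2 was at 7.96, 9.36 and 7.95 in the negative arrays and at 7.77, 8.77 and 7.41 in the positive arrays. Arrays 2 were the highest of both groups, by more than the groups differed. The difference was -0.44 (SE 0.48, 95% interval -1.57 to 0.68, limma adjusted p = 0.926). It was -0.19, -0.59 and -0.54 in pairs 1, 2 and 3, and with the block the SE was 0.11, the 95% interval -0.72 to -0.16 and the adjusted p 0.397. It was -0.83 without positive array 2 and 0.03 without negative array 2. In each case the group means lose a high array and keep its pair. With the mean of the probesets of Dab2 the difference was -0.25.

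Gata4, Foxa2, Dab2 and Lama1 were the 4 of 10 genes lower in all 3 pairs, against 23.8% of all genes. RefSeq promoter windows (assembly GRCm38.p6) were at hand for 4 of the 10 genes, Pdgfra, Foxa2, Dab2 and Lamb1, in 7 windows, and the windows before the outermost starts of Dab2 and Foxa2 are shown because these 2 genes are among those lower in all pairs. Each is the 250 bases before a start, read 5′ to 3′ on the gene's strand, and capitals mark letters of the GATA motif. The Dab2 window is chr15:6299539-6299788 on the plus strand and the Foxa2 window is chr2:148046970-148047219 on the minus strand.
Dab2: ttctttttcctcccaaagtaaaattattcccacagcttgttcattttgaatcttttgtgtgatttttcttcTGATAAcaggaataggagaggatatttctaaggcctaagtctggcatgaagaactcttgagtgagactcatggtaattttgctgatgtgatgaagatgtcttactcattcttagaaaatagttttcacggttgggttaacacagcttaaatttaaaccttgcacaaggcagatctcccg
Foxa2: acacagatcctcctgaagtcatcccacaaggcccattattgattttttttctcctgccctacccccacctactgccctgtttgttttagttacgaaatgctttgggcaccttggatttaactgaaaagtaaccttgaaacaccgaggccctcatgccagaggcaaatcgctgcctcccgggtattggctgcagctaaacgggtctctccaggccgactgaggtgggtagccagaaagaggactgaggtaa

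The GATA motif was searched on both strands as the letters AGATAA, then the letters AGATAG, then the letters TGATAA and then the letters TGATAG. It was found once in the Dab2 window, at position 72 from its 5′ end (TGATAA), and not in the Foxa2 window shown. It was found once more in the 7 windows, in the window of another Foxa2 start, at chr2:148045630-148045659 on the minus strand, shown in 30 bases.
Foxa2, other start: ctgttagccttgAGATAAtattaactttgt

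Of all 32851 windows of this length, 26.5% held the GATA motif. The SOX letters ATTGTT, on both strands, were in 0 of the 7 windows and in 9.42% of all, and the FOXA letters TGTTTAC, or the same with the letters TATTTAC, on both strands, in 0 of the 7 and in 5.76% of all. A match describes letters only.

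The differences of the laminin chains did not share one sign. Without the block each of their 95% intervals included 0, and the chains were not tested against each other. Lama1 (probeset 10446473), the alpha chain of the early embryo's laminin, was at 9.76, 8.37 and 9.28 in the negative arrays and at 9.21, 7.87 and 8.98 in the positive arrays. Arrays 2 were the lowest of both groups, the reverse of Dab2. The difference was -0.45 (SE 0.45, 95% interval -1.51 to 0.61, limma adjusted p = 0.919), and the pairs were close to each other at -0.55, -0.51 and -0.30. With the block the SE was 0.10, the 95% interval -0.69 to -0.21 and the adjusted p 0.396, the smallest of the 10 genes. Leaving out negative array 2 or positive array 1 gave -0.83 or -0.71, while leaving out negative array 1 or positive array 2 gave -0.14 or -0.04.

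Lamb1 (probeset 10395163), the beta chain, was at 9.02, 9.70 and 9.19 in the negative arrays and at 9.02, 9.997 and 9.18 in the positive arrays. Arrays 2 were the highest of both groups, and the arrays of pairs 1 and 3 differed by 0.0030 and -0.0078. The difference was 0.10 (SE 0.29, limma adjusted p = 0.977), of which pair 2 gave 0.29. Its sign turned when positive array 2 (-0.20) or negative array 1 (-0.05) was left out and with array weights (-0.04).

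Lamc1 (probeset 10358816), the gamma chain found in most laminins, was at 11.05, 11.02 and 10.87 in the negative arrays and at 11.10, 11.35 and 11.16 in the positive arrays. Every positive array lay above every negative array, of the 10 genes for Lamc1 alone, and for 4.08% of all genes. The difference was 0.22 (SE 0.12, limma adjusted p = 0.910), with 0.05, 0.32 and 0.29 in pairs 1, 2 and 3. With arrays left out it lay between 0.15 and 0.31, where separate groups left its sign no way to turn. Lamc1 was the 1 gene of the 10 that was higher in all 3 pairs, against 15.1% of all genes.

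**Figure D3:**
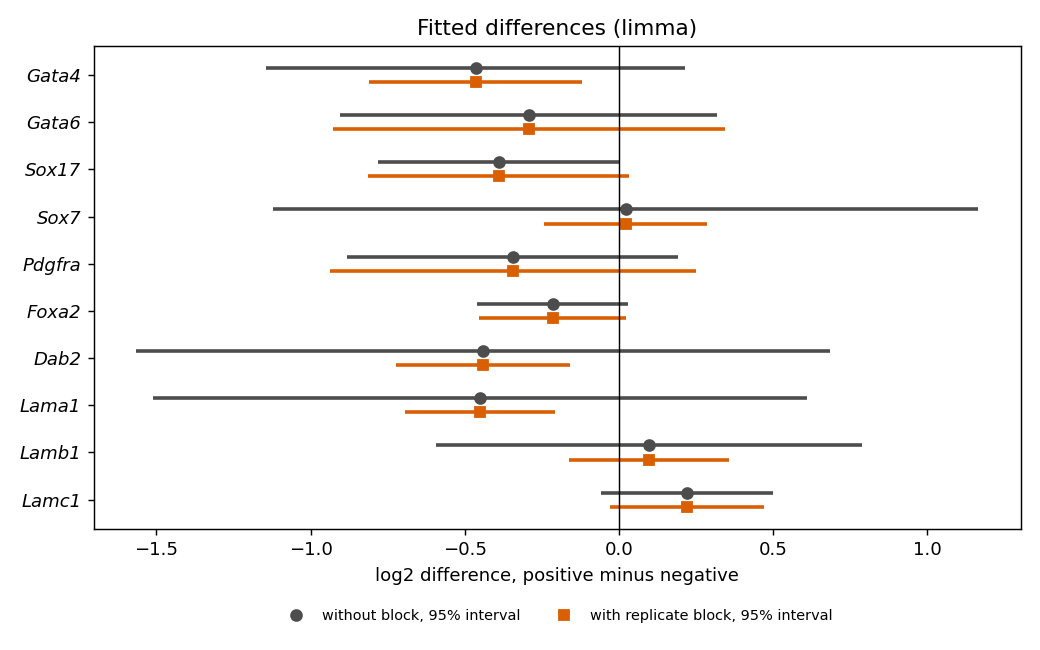
Fitted log2 difference (positive minus negative) of the 10 genes with its 95% interval, from limma without (grey circles) and with (orange squares) the replicate number as a block; the line is at 0. Without the block 10 of 10 intervals include 0, and with it 7 of 10, the exceptions being Gata4, Dab2 and Lama1, before any adjustment over genes.

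The variation of each gene over the 6 arrays was divided into parts due to the replicate number, the reporter group and the rest, as percent of its sum of squares. The number took the largest part in Sox7 (98.6%), Lamb1 (94.7%), Dab2 (86.9%), Lama1 (86.1%) and Gata4 (61.1%). The group took the largest part in Foxa2 (76.9%), Lamc1 (58.0%) and Sox17 (53.8%). The rest, which holds what the pairs do not share, was largest in Gata6 (68.3%) and Pdgfra (68.7%), and was 44.4% in Sox17. Over the 10 genes the medians were 42.6% for the number, 22.9% for the group and 12.3% for the rest. Over all genes they were 55.3%, 13.5% and 19.0%. How many of all genes had each part largest was not counted. The group has fewer degrees of freedom than the number or the rest, so the parts are not on equal terms. Arrays 2 were the highest of both groups for Gata4, Dab2 and Lamb1, as for 22% of all genes, and the lowest of both for Sox7 and Lama1, as for 29.6%.

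**Figure D4:**
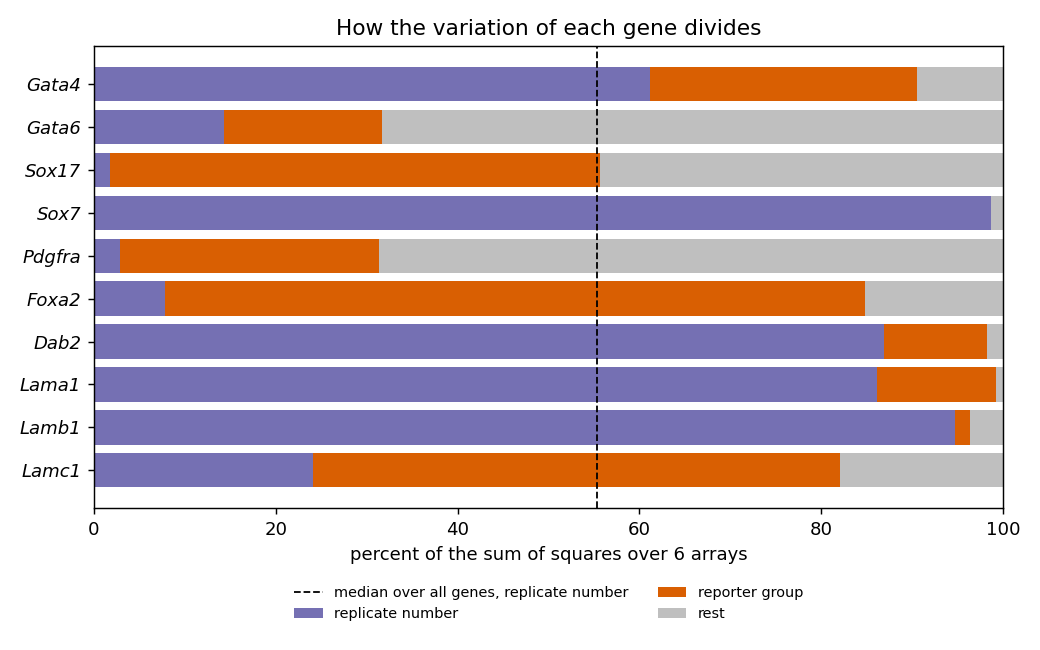
Percent of the sum of squares over 6 arrays due to the replicate number (purple), the reporter group (orange) and the rest (grey) for each of the 10 genes; the dashed line is the median part of the number over all genes, 55.3%. Sox7, Lamb1, Dab2 and Lama1 are mostly purple, Gata6 and Pdgfra mostly grey.

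The other genes of the lineage were read from lists by name, and in every list 0 genes passed the test, with or without the block. Of the visceral endoderm list, the lipid carriers, uptake receptors and factors of the layer facing the epiblast, 26 of 28 were measured, 17 lower and 9 higher, with a median of -0.10. Of them 6 were lower and 1 was higher without overlap, against 7.15% and 4.08% of all genes, and 10 were lower and 3 higher in all 3 pairs, against 23.8% and 15.1%. Leaving out negative array 1 gave a median of -0.06, leaving out positive array 1 gave -0.15, and leaving out the dimmest 30% of genes gave -0.06. The largest differences beside Foxa1 were those of Bmp2, a signal of visceral endoderm, at -0.50 (SE 0.17) without overlap, and Lrp2, megalin, at 0.46 (SE 0.48). Bmp2 was dim, between 5.21 and 5.98 in all arrays, and was among the dimmest 30% of genes. Of the parietal endoderm list 13 of 14 were measured, 9 lower and 4 higher, with a median of -0.23, which was -0.15 when negative array 1 was left out and -0.13 when both arrays of number 3 were. Snai1, a factor of epithelial-mesenchymal change, differed by 0.68 (SE 0.34), Krt19, a keratin, by -0.51 (SE 0.30), and Pth1r, the parathyroid hormone receptor of parietal endoderm, by -0.46 (SE 0.22).

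The receptors that Dab2 serves did not share one sign. Lrp2 was at 8.67, 10.13 and 9.05 in the negative arrays and at 9.12, 10.61 and 9.51 in the positive arrays, and its pairs differed by 0.45, 0.48 and 0.46. Arrays 2 were the highest of both groups, as for Dab2, whose pairs were all below 0. Cubn, cubilin, differed by -0.38 (SE 0.19) and Amn, its membrane partner, by -0.28 (SE 0.11), the latter without overlap. Of the 9 measured genes of this list, 6 were higher and 3 lower, with a median of 0.08. That median was 0.16 without positive array 3, 0.02 without negative array 1 or with array weights, and -0.0045 without positive array 2.

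Of the other structural genes of basement membranes, 27 of 28 were measured, 14 lower and 13 higher, with a median of -0.10. That median was 0.03 without the dimmest 30% of genes and also without negative array 2. The largest differences were those of Ntn4, a netrin of basement membranes, at -0.36 (SE 0.12) without overlap, Fbln1, fibulin, at 0.34 (SE 0.49), and Lama4, a laminin alpha chain of vessels, at 0.31 (SE 0.16). The collagen IV chains Col4a1 and Col4a2, which form the network beside laminin, differed by -0.24 and -0.27 and were named after their values were seen. The laminin receptors were 4 higher and 5 lower of 9, with a median of -0.04 that was 0.05 without positive array 3, 0.07 without negative array 2 and 0.05 with array weights. Itgb1, a beta integrin, differed by -0.20 (SE 0.27), Itga3 by -0.18 (SE 0.31) and Itgb4 by 0.17 (SE 0.15).

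Of the growth factor pathway that acts upstream of the lineage, 18 of 21 genes were measured, 12 lower and 6 higher, with a median of -0.10. Leaving out negative array 1, positive array 2, negative array 2 or positive array 3 gave a median of -0.02, -0.03, -0.04 or -0.05, and array weights gave 0.0020. Etv4, a target of ERK signalling, differed by -0.45 (SE 0.29), Pdgfc, a ligand of Pdgfra, by -0.36 (SE 0.59) and Spry4, a feedback inhibitor, by -0.29 (SE 0.53). Pdgfc was at 8.60 in positive array 2 and between 9.91 and 10.78 in the other arrays. Among relatives and cofactors of the GATA and SOX factors, 4 were higher and 5 lower of 9. There Gata3 differed by 0.50 (SE 0.28) and Sox18, the third gene of the subfamily of Sox17 and Sox7, by -0.48 (SE 0.22), with pairs at -0.62, -0.44 and -0.37.

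**Figure D5:**
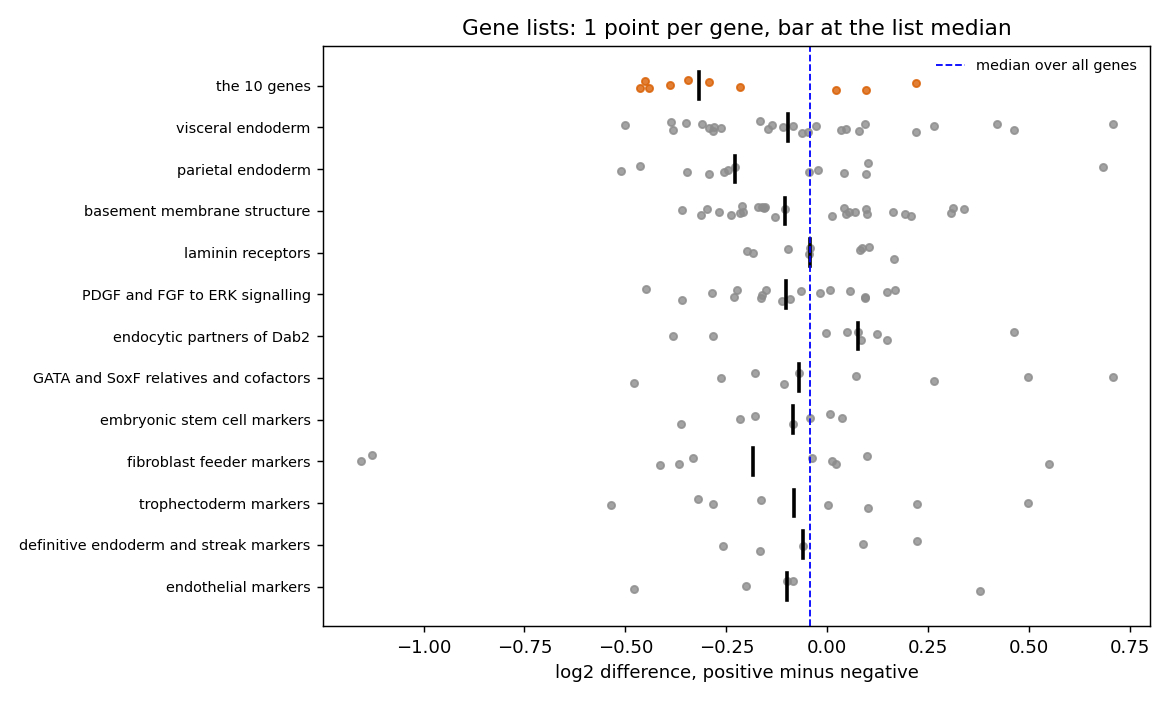
Log2 difference (positive minus negative) of every measured gene of each list other than the 2-cell check genes, which are not drawn, 1 point per gene (orange for the 10 genes, grey for the other lists), with a black bar at the list median and a dashed line at the median over all genes, -0.04. Points are spread vertically at random for visibility. The median of the 10 genes is -0.32, that of the parietal endoderm list -0.23 and those of the other lists drawn lie between -0.18 and 0.08.

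Markers of other cells were read beside these genes. Fibroblast feeder markers, 10 of 10 measured, had a mean level of 7.07 to 7.66 in negative and 6.70 to 7.58 in positive arrays, with 6 lower and 4 higher. Their median differences were -0.23, -0.09 and -0.35 in pairs 1, 2 and 3, beside -0.36, 0.12 and -0.40 for the 10 genes, and their part in the result was not tested. Their median over all arrays was -0.18, and -0.35 without the dimmest 30% of genes, where that of the 10 genes was -0.32. It was -0.11 without negative array 2. Acta2 differed by -1.16 (SE 1.06), the lowest difference of all genes, Tagln by -1.13 (SE 1.06) and Thy1 by 0.55 (SE 0.21). Lum, named after its value was seen, was between 3.73 and 3.85 in all arrays. It is 1 gene of the list and does not show whether fibroblasts were present. Trophectoderm markers were 4 higher and 4 lower of 8, with Krt7 at -0.54, Gata3 at 0.50 and Tfap2c at -0.32. Definitive endoderm and streak markers, 5 of 6 measured, were 2 higher and 3 lower, with Mixl1 at -0.26, Eomes at 0.22 and Cer1 at -0.17. Endothelial markers, which share SOX factors with these genes, were 1 higher and 4 lower of 5, with Tek at 0.38 and Cdh5 at -0.20 beside Sox18. ES cell markers were 2 higher and 5 lower of 7, with Esrrb at -0.36, Sox2 at -0.22 and Klf4 at -0.18.

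The genes most like the mean profile of the 5 transcription factors, each gene centred on its own mean over 6 arrays, were Htra4, Baalc and Gja5, at a root mean square distance of 0.04, 0.04 and 0.05 log2 units. The 5 factors themselves were farther from that mean, between 0.16 for Sox17 and 0.57 for Sox7. For the mean of the 3 laminin chains the nearest were Olfr1153, Piwil1 and Qars, at 0.01, 0.02 and 0.02, and the chains themselves were at 0.56 for Lama1, 0.42 for Lamb1 and 0.18 for Lamc1. These other genes were picked as the nearest of 15093 and 19779 eligible genes, so their closeness is set by the choice and says nothing of the 10 genes.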

How the data were processed

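The deposited values are log2 expression made by the authors with RMA in Affymetrix Expression Console, per the submitters' processing notes. RMA corrects background, normalizes quantiles and summarises probesets, which pulls dim probesets together. Per the labels' protocols, 100 ng of total RNA was labelled. Software versions and genome build: not given in the sources used here. Array medians over 35556 probesets ranged from 6.95 to 7.04. Precision is limited by having 6 arrays.

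In the platform annotation 21789 probesets had 1 symbol, 1621 several and 12146 none. Where a gene had several, its probeset of highest mean was kept, giving 19938 genes, none filtered out. The fit was limma 3.58.1 (R 4.3.3; lmFit, eBayes, two-sided, Benjamini-Hochberg over all genes, threshold 0.05). It was tried on data simulated without effects of the replicate number, and the block fit on data with them. The fit without the block was thus not tried with such effects. Errors are the SE of the fit and 95% intervals are unadjusted. The labels name no separate cultures for the samples, so the spread behind each p may be technical. Across genes, same-numbered arrays deviated together (r = 0.55, 0.55 and 0.46 for numbers 1, 2 and 3), so the pairing was used as a block in an alternative fit. What the numbers mark is not stated.

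Genes and lists were chosen with earlier results of these data known. Of each list, the 3 genes with the largest difference are named, as none passed, and genes outside this rule are marked as such. Alternatives were single arrays or both arrays of a number left out, median centring, a second quantile normalization, array weights, the dimmest 30% of genes left out and the mean of a gene's probesets.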

Additional observations from a re-analysis of the deposited data

How the results depend on the processing

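In all 15 alternatives, 0 genes and 0 of the 10 passed the test. The 2-cell check genes, with a median difference of 3.68 in the main fit, did not pass either. The count of 0 thus does not show that the 10 genes were unchanged. The fit with the replicate block gave 0 genes as well (smallest adjusted p 0.363), while the 10 genes at an unadjusted p under 0.05 went from 0 to 3, against 4.4% and 12% of all genes. By that rule the block also moved the visceral endoderm list from 3 to 8 lower and from 0 to 2 higher genes. The fibroblast feeder list went from 1 to 5 lower, with 1 higher in both fits. Over all 19938 genes the block moved these counts from 490 to 1318 lower and from 388 to 1076 higher. It changed no call at an adjusted p under 0.05. The median over the 10 genes lay between -0.40 and -0.16 when arrays were left out and between -0.36 and -0.27 in the other alternatives, and 7 to 9 of the 10 were lower. At an unadjusted p under 0.05 there were 5 of the 10 without both arrays of number 2, against 14.8% of all genes, and 5 with array weights, against 24.3%. The weights were unequal, from 0.27 for positive array 2 and 0.29 for negative array 2 to 6.21 for negative array 3. The sign of Sox7, 0.02, turned in 5 alternatives: with arrays left out it ranged from -0.40 to 0.40, and a second quantile normalization gave -0.049. That of Lamb1, 0.10, turned in 4: with arrays left out it ranged from -0.20 to 0.30, and array weights gave -0.040. Dab2, -0.44, ranged from -0.83 to 0.025 with arrays left out, turned without negative array 2 alone, and was -0.25 with the mean of its probesets. The causes were not tested. With 1 array left out the fit had 2 arrays against 3, and with a number left out 2 against 2.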
